A study of Mus musculus with 2 samples.

Results

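The genes described here code for the SNARE proteins that fuse synaptic vesicles with the plasma membrane and for proteins that act directly on them. They are Snap25, Vamp1, Vamp2, Stx1a, Cplx1, Cplx2, Unc13a and Nsf, chosen by symbol, and each of the 8 symbols matched 1 of the 55536 annotated genes. Total RNA was sequenced from the hippocampus of mice of the hybrid strain B6CASTF1/J, a C57BL/6 by CAST cross. The mice were male and aged 18 to 20 months. The labels give 1 group of 2 libraries, biological replicates 1 and 2, each made from 300 ng of RNA with ERCC RNA spike-ins, and name no treatment or altered gene. A common donor entry covers both replicates. Whether the tissue came from 1 animal or more is not in the labels, so the spread between them may be technical.

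In vesicle fusion, a VAMP protein on the vesicle zips together with a syntaxin and a SNAP protein on the plasma membrane, and the bundle of helices they form pulls the membranes together. Complexins bind the partly zipped bundle and help to hold fusion until calcium arrives, and Unc13 proteins open syntaxin so that vesicles become ready for release. After fusion the ATPase Nsf, with its SNAP adaptors, takes the bundle apart for reuse. In the hippocampus this machinery serves glutamate and GABA release, and most of its members have paralogs that differ between brain regions or between synaptic and other membranes.

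Replicate 1 held 34563482 expected read counts in annotated genes and replicate 2 held 32370292, of which the 8 genes took 0.492% and 0.516%. The counts of the replicates differed by more than sampling noise, with a chi-square of 7.80 per degree of freedom over 19816 genes. Markers of the labelled tissue were present. All 5 hippocampal field genes and all 5 excitatory neuron genes had a TPM (a transcript level corrected for length and scaled to the library) of at least 1 in both replicates, with list medians of 50.3 ± 0.544 and 72.4 ± 4.26 TPM (SD, n = 2). Median levels of the other lists were 154 ± 9.80 TPM for pan-neuronal, 32.3 ± 1.96 for inhibitory neuron, 113 ± 0.672 for astrocyte, 171 ± 2.75 for oligodendrocyte, 11.4 ± 0.859 for oligodendrocyte precursor, 18.1 ± 1.94 for microglia and 12.3 ± 0.396 TPM for endothelial and mural genes. Genes of neighbouring regions were lower, at 4.61 ± 0.990 TPM for thalamus and 3.11 ± 0.216 TPM for striatum. All 4 thalamus and all 4 striatum genes also reached 1 TPM in both replicates, as did 25.7% of all annotated genes. The lists thus differed in their medians and not in the counts of genes detected. Medians over different genes do not measure how much of a region was present. The libraries stood apart in choroid plexus genes, whose summed level was 36.3 TPM in replicate 1 and 693 TPM in replicate 2. Conditions could not be compared within 1 group. The smallest two-sided p of an exact sign-flip test of 2 values is 0.5, so no p-values are given, and each difference is set beside the spread of the replicates.

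All 8 genes were well above the detection level of 1 TPM in both replicates, which 25.7% of all annotated genes reached. Snap25, Nsf, Vamp2, Cplx2 and Cplx1 had at least 100 TPM in both, 5 of 8 genes against 3.48% of 22015 nuclear protein-coding genes. The median over the 8 genes was 314 ± 14.7 TPM. The levels ran over a 27.4 ± 1.47-fold range (SD, n = 2), with Snap25 at the top and Vamp1 at the bottom. Among the nuclear protein-coding genes Nsf ranked 52 in replicate 1 and 57 in replicate 2, Vamp2 75 and 71, Cplx2 79 and 80 and Cplx1 196 and 186. Unc13a ranked 807 and 893, Stx1a 2766 and 2596 and Vamp1 2949 and 2943. The second transcript table, summed per gene, gave all 8 a higher TPM, from 1471 and 1625 for Snap25 to 52.8 and 52.0 for Vamp1. The median gene was higher there too. Its gene table TPM was 0.615 times that of the second table in replicate 1 and 0.617 times in replicate 2. In bulk tissue, fewer cells that express a gene and less RNA per cell cannot be told apart.

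**Figure D1:**
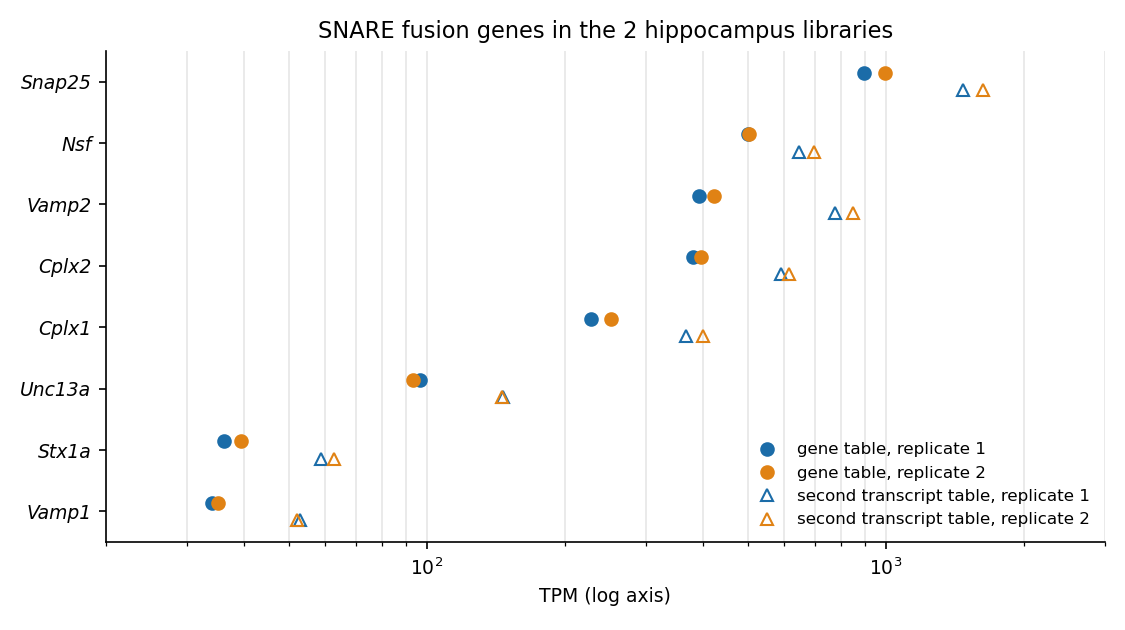
TPM of the 8 genes on a log axis, from highest to lowest by the gene table, with filled circles for the gene table and open triangles for the second transcript table, and 1 colour per replicate. The replicates of a gene lie close together, Snap25 stands at 897 and 997 TPM in the gene table, and Stx1a and Vamp1 reach no more than 39.4 TPM there.

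Snap25, the SNAP protein of the plasma membrane that gives the bundle a pair of its helices, had 897 TPM in replicate 1 and 997 TPM in replicate 2, a mean of 947 ± 70.8 TPM (SD, n = 2). It ranked 15 and 14 by TPM, the highest of the 8. Its gene lies on chromosome 2 at chr2:136713453-136782428 (mm10, plus strand). Snap25 is known for a pair of mutually exclusive versions of exon 5. In the developing brain the upstream version, 5a, is the common one, and the downstream version, 5b, takes over with maturation. Both versions are coding exons of 118 bases, and they are shown here in reading order from GENCODE M21, with the bases at which they differ in capitals. Exon 5b lies at chr2:136770057-136770174 and exon 5a upstream of it at chr2:136769743-136769860.
Snap25 exon 5b: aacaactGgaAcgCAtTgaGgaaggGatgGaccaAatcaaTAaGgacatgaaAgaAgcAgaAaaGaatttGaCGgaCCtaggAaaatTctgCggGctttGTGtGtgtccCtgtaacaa
Snap25 exon 5a: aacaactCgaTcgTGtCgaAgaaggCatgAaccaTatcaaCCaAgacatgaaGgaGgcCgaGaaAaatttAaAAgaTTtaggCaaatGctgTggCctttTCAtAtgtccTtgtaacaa
The exons differ at 31 of 118 bases. Of the 38 codons that lie whole within them, 26 differ, and 9 of these change the amino acid. The longest stretch they share is 8 bases, so reads over this exon can be told apart.

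Exon 5b made up most of the Snap25 message. Snap25-201, the transcript with exon 5b, had 796 TPM in replicate 1 and 889 TPM in replicate 2, and Snap25-202, with exon 5a, had 98.2 and 105.6 TPM. Of the transcripts with either exon, those with 5b held 89.0% and 89.4% of the TPM, a mean of 89.2% ± 0.250 (SD, n = 2), which left 10.8% ± 0.250 for exon 5a. The replicates differed by less than 1 percentage point, far less than the distance between the forms. The annotated Snap25-202 is 1014 bases long and Snap25-201 2116 bases, because the annotation of Snap25-201 runs 1077 bases further at its 3′ end. Part of the split between them therefore rests on reads of that end and not of exon 5. By expected counts without length correction the 5b share was 94.8% ± 0.128, and in the second transcript table it was 86.7% ± 0.566 of the TPM. The third transcript, Snap25-203, a retained intron, held the rest of the gene's TPM, and the 2 coding transcripts together 99.7% ± 0.0181.

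Among the paralogs of Snap25, Snap47, a SNAP protein without a membrane anchor, had 142 TPM in replicate 1 and 152 TPM in replicate 2. Snap29, which serves autophagosome and endosome fusion, had 9.54 and 9.52 TPM. Snap23, the form of most other cells, had 7.56 and 8.36 TPM. Snap25 held 85.0% and 85.5% of the TPM of these 4 genes (85.2% ± 0.344, SD, n = 2) and was 6.46 ± 0.164 times as high as Snap47. The second table put this ratio at 3.68 ± 0.0532. There, Snap47-206, whose annotated 502 bases hold only part of the coding sequence, had 170 ± 6.55 TPM, against 0.365 ± 0.163 TPM in the first transcript table.

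Vamp2, the main vesicle SNARE of forebrain synapses, had 392 TPM in replicate 1 and 422 TPM in replicate 2 (407 ± 21.1 TPM, SD, n = 2). Vamp1, its closest paralog and the form of many brainstem and spinal neurons, had 34.1 and 35.1 TPM (34.6 ± 0.728 TPM). The genes lie at chr11:69088490-69092384 and chr6:125215551-125245964 (mm10), both on the plus strand. Vamp2 was 11.8 ± 0.362 times as high as Vamp1 and held 92.0% and 92.3% of their summed TPM (92.2% ± 0.222). In the second table Vamp2 was 15.5 ± 1.12 times as high, and by counts without length correction 8.90 ± 0.342 times. Exon 3 of the pair codes for much of the SNARE helix and is 159 bases long in both genes. It is shown to compare the sequences by which reads of the paralogs are told apart, with the differing bases in capitals, at chr11:69089731-69089889 for Vamp2 and chr6:125218911-125219069 for Vamp1.
Vamp2 exon 3: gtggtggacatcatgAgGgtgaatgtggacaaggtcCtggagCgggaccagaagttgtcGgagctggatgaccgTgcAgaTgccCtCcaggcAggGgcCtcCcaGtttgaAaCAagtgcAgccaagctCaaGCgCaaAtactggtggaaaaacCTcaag
Vamp1 exon 3: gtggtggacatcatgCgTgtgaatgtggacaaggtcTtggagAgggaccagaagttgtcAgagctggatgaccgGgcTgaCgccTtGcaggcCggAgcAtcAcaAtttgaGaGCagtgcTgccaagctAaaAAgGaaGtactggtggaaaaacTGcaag
They differ at 26 of 159 bases and in 21 of 53 codons. Only 2 of those codons change the amino acid, so the exon is nearly the same in protein and still distinct in sequence. The longest identical stretch is 18 bases.

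Both genes had a second transcript whose share rested on the table. Vamp2-201, which codes for 116 amino acids, held 95.0% of the Vamp2 TPM in replicate 1 and 96.1% in replicate 2 of the first table. Its share was 74.9% ± 0.425 in the second table. Vamp2-204, a noncoding transcript of 918 bases that keeps the 478 bases of intron 1, took 0.682% ± 0.197 in the first table and 23.4% ± 0.754 in the second. Relative to the median protein-coding gene, whose TPM in the gene table was 0.615 times that in the second table in replicate 1 and 0.617 times in replicate 2, Vamp2 was 0.823 and 0.808 times as high in the gene table. Vamp2 alone of the 8 genes departed by over 1.2-fold from that median in both replicates, 1 of 8 against 20.2% of 7789 genes with a mean of at least 10 TPM.

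Vamp1-201, the 118-residue form, held 80.4% of the Vamp1 TPM in replicate 1 and 81.8% in replicate 2. Vamp1-203 held 16.5% and 14.7% (15.6% ± 1.26), and 21.4% ± 0.870 in the second table. Vamp1-203 does not splice out intron 4 but reads into it, so the last codons differ. The coding ends are shown because they define the 2 forms, with the stop codon in capitals. That of Vamp1-201 lies at chr6:125220050-125220066 and that of Vamp1-203 at chr6:125219638-125219651.
Vamp1-201 coding end: tctacttttttactTGA
Vamp1-203 coding end: gtaagtatcgcTGA
The form with the intron-encoded end is 1 residue shorter, at 117 residues. Of the reads assigned to these forms, 409.78 and 346.05 were given to Vamp1-203, with a posterior SD, the spread that the quantification itself assigns, of 38.3 and 33.5. Long annotated Vamp1 transcripts run over Tapbpl and Cd27 on the opposite strand, which had 1.73 and 0 TPM in replicate 1 and 1.58 and 0 TPM in replicate 2. Whether counting used strand is not given in the sources used here, but both are far below Vamp1.

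The other VAMP genes serve other membranes. Vamp4, of the trans-Golgi network and endosomes, had 40.7 TPM in replicate 1 and 42.8 TPM in replicate 2 and thus stood above Vamp1 in both. Vamp7 had 11.7 and 12.1 TPM, Vamp3 12.1 and 11.45 TPM and Vamp8 6.99 and 7.84 TPM, all known from endosomes and lysosomes. Vamp5, a form of muscle, had 3.19 and 2.00 TPM. Vamp7 is annotated on an unplaced scaffold and has no row in the second table.

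Stx1a, a syntaxin of the presynaptic plasma membrane, was among the lowest of the 8 genes. It had 36.1 TPM in replicate 1 and 39.4 TPM in replicate 2 (37.7 ± 2.36 TPM, SD, n = 2) and lies at chr5:135023482-135051100 (mm10, plus strand). Stx1a-201, which codes for 288 amino acids, held 85.1% of the Stx1a TPM in replicate 1 and 91.0% in replicate 2. This was the widest gap between the replicates among the leading transcripts of the 8 genes. Stx1a-203, a noncoding transcript of 594 bases, held 6.40% ± 0.00574, and 7.97% ± 1.35 in the second table.

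Stx1a was set beside 13 syntaxin genes, of which the highest were genes of endosomes and the trans-Golgi network. Stx7 had 52.7 TPM in replicate 1 and 62.4 in replicate 2, Stx6 48.2 and 49.4 TPM, and Stx12 43.1 and 47.2 TPM. All of these stood above Stx1a in both replicates. In the second table they did so too, but Stx7, at 58.9 and 66.2 TPM, was close to Stx1a, at 58.8 and 62.8 TPM. Stx4a had 60.3 and 58.1 TPM there, above Stx1a in replicate 1 and below it in replicate 2. The gene table gave the levels that follow. Stx16, Stx4a and Stx5a averaged 26.6 ± 2.17, 25.8 ± 0.0707 and 25.1 ± 0.00707 TPM, and Stx18, Stx8, Stx3, Stx2 and Stx17 lay between 16.0 ± 1.26 and 7.53 ± 0.488 TPM. Of these, Stx4a, Stx3 and Stx2 are plasma membrane syntaxins like Stx1a. Stx4a was the highest of them, and Stx3 and Stx2 had 11.1 ± 0.990 and 10.6 ± 1.27 TPM. Stx11, of immune cells, was listed at 0.05 and 0.03 TPM, and Stx19 had 0 counts in both replicates, where 0 counts allow up to 0.0868 and 0.0927 CPM, counts scaled to library size. These limits rest on 3 counts and cover counting error only. The second table listed Stx11 at 0.595 and 0.578 TPM and Stx19 at 0.0286 and 0.209 TPM.

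A SNARE bundle takes up 1 SNAP and 1 VAMP protein, but their messages were not equal. Snap25 was 2.14 ± 0.0544 times the sum of Vamp1 and Vamp2 in TPM (SD, n = 2), and 1.79 ± 0.0239 times in the second table. Both distances were many times the spread between the replicates. Message levels are not protein levels, which were not measured.

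**Figure D2:**
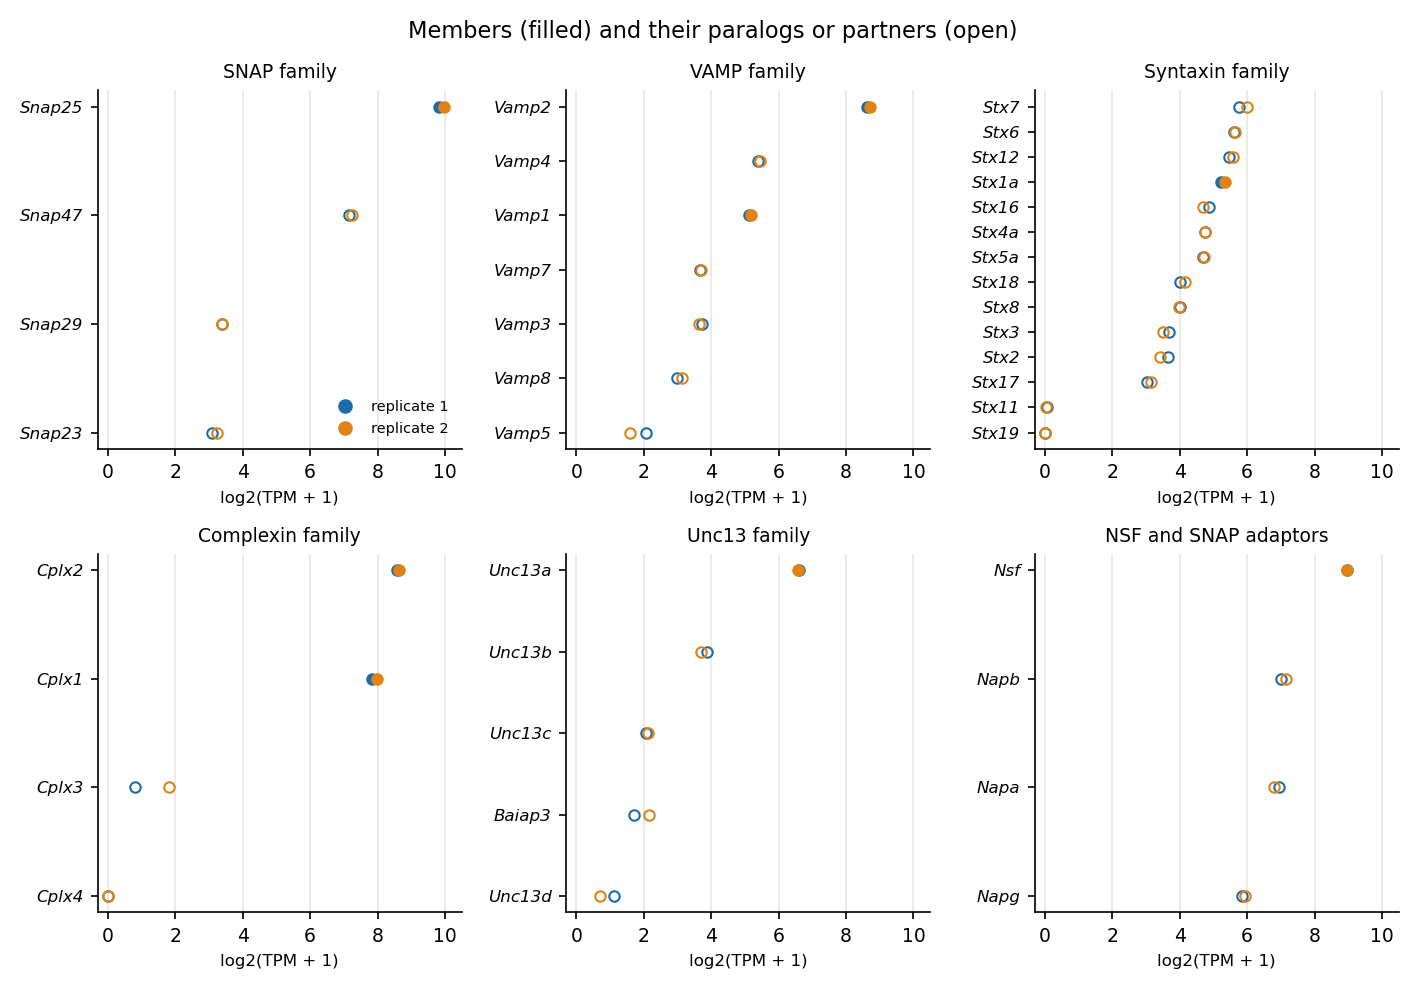
Level as log2(TPM + 1) of the genes described in 6 families or partner groups, with filled circles for the 8 described genes, open circles for the others and 1 colour per replicate. Snap25, Vamp2, Cplx2, Unc13a and Nsf lead the genes shown, while Stx7, Stx6 and Stx12 stand above Stx1a, and Vamp2 and Vamp4 stand above Vamp1.

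The complexins were the closest pair. Cplx2 had 379.7 TPM in replicate 1 and 396 TPM in replicate 2 (388 ± 11.7 TPM, SD, n = 2), and Cplx1 had 227 and 252 TPM (239.8 ± 17.6 TPM). Cplx2 was higher in both replicates, 1.67 and 1.57 times, with a mean of 1.62 ± 0.0700. Cplx2 is the complexin of many excitatory forebrain neurons, and Cplx1 is prominent in inhibitory neurons and in the hindbrain. Cplx2 held 62.5% and 61.1% of their summed TPM, a mean of 61.8% ± 1.02, and 61.1% in the second table. Without length correction its share was 78.9%, since the only annotated Cplx2 transcript has 4928 bases and Cplx1-201 has 2189. By counts Cplx2, with 46018 and 44140 expected counts, was the highest of all 8 genes, above Snap25 with 42923 and 43921.

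The paralogs are coded on chromosome 13 (Cplx2, chr13:54371349-54383917, plus strand) and chromosome 5 (Cplx1, chr5:108518554-108550024, minus strand, mm10). Their coding sequences both have 402 bases and differ at 82 of them, which changes 21 of 134 amino acids. The second coding exon, 176 bases in both, holds most of the helix that binds the SNARE bundle and is shown to compare the genes, with differing bases in capitals, at chr13:54378812-54378987 and chr5:108525392-108525567.
Cplx2 coding exon 2: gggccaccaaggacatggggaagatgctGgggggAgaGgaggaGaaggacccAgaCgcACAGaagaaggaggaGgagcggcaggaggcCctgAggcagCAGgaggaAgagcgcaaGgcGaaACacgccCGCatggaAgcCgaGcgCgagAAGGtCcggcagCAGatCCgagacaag
Cplx1 coding exon 2: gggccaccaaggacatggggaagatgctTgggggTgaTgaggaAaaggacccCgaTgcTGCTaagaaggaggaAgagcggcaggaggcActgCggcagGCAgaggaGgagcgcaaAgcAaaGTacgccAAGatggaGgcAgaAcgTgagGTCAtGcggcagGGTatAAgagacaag
They differ at 38 bases and in 27 of 58 whole codons, 8 of which change the amino acid. The first 28 bases are identical. Cplx1-201 held all of the Cplx1 TPM in the first table and 96.1% ± 1.13 in the second. Cplx3 and Cplx4, the complexins of retinal ribbon synapses, were far lower. Cplx3 had 0.75 TPM in replicate 1 and 2.48 TPM in replicate 2, from 32 and 65 counts, and Cplx4 had 0 counts in both.

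Unc13a, which primes vesicles for release, had 96.8 TPM in replicate 1 and 93.5 TPM in replicate 2 (95.1 ± 2.39 TPM, SD, n = 2). It lies at chr8:71624417-71671757 (mm10, minus strand). It held 82.6% and 82.8% of the TPM of the 5 Unc13 genes (82.7% ± 0.145) and was 7.43 ± 0.557 times as high as Unc13b, a second priming factor of hippocampal synapses with 13.8 and 11.95 TPM. Unc13c, known from the cerebellum, had 3.15 and 3.39 TPM, and Baiap3, a relative that acts on dense-core vesicles, 2.27 and 3.41 TPM. Unc13d, of secretory granules in blood cells, had 1.17 and 0.62 TPM in the gene table and so did not reach 1 TPM in both replicates there. The second table gave it 4.45 and 4.11 TPM. The Unc13a share lay between 81.2% and 83.6% in the second table, by counts and with coding transcripts alone.

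The Unc13a level was spread over several transcripts. Unc13a-208 and Unc13a-201, both with a complete coding sequence, held 34.0% ± 0.0933 and 31.9% ± 0.575 of the TPM. They code for 1731 and 1712 amino acids. The difference is 1 exon of 57 bases that Unc13a-208 holds and Unc13a-201 lacks, shown because it defines the forms, at chr8:71633439-71633495, in the direction of the gene.
Unc13a extra exon: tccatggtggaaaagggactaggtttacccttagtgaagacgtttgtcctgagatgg
Of the TPM of these 2 forms, Unc13a-208 held 51.9% in replicate 1 and 51.3% in replicate 2, and 56.6% ± 0.360 in the second table. By counts it held 36.9% ± 0.357, because the annotation of Unc13a-201 runs 4637 bases further at its 3′ end. As for Snap25, the split thus rests partly on reads of the 3′ end and not only of the exon. Unc13a-206 and Unc13a-207, retained-intron transcripts, held 12.1% ± 0.325 and 10.2% ± 1.60, and Unc13a-204, a fragment of the coding sequence, 6.82% ± 1.03. In the second table Unc13a-206 and Unc13a-207 held 4.32% ± 0.741 and 7.17% ± 1.198, while Unc13a-202, a retained intron, and Unc13a-205, a coding fragment, held 6.98% ± 0.421 and 6.06% ± 1.28. In the first table the shares of Unc13a-202 and Unc13a-205 were 1.59% ± 0.450 and 3.36% ± 0.672. Transcripts with a complete coding sequence held 65.8% ± 0.658 of the Unc13a TPM, which is 62.6 ± 0.948 TPM. The last 495 bases of the gene overlap Colgalt1 on the opposite strand, which had 21.4 and 20.8 TPM, so reads there are uncertain.

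Nsf, the ATPase that takes SNARE bundles apart, had 500.4 TPM in replicate 1 and 503 TPM in replicate 2 (502 ± 1.76 TPM, SD, n = 2), second to Snap25. The gene lies at chr11:103821782-103954056 (mm10, minus strand). A processed pseudogene on the same strand within it, Gm8738, had 1.04 and 0.75 TPM. Its near-equal totals hide transcripts that moved in opposite directions between the replicates. Nsf-202, which codes for the full 744 amino acids, had 332 TPM in replicate 1 and 355 TPM in replicate 2. Nsf-209, of 278 bases and with only part of the coding sequence, had 133 and 115 TPM. Nsf-205, also incomplete at 823 bases, had 27.5 and 24.8 TPM.

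Nsf-205 and Nsf-209 begin at an annotated first exon of 52 bases at chr11:103938165-103938216, within intron 1 and 15840 bases downstream of the start of Nsf-202. Together they held 32.1% of the Nsf TPM in replicate 1 and 27.7% in replicate 2. By expected counts they held 3.44% and 2.85%, because Nsf-209 is so short that few reads give a high TPM. Nsf-209 had 598.87 counts in replicate 1 and 472.88 in replicate 2, with a posterior SD of 36.4 and 37.0. In the second table Nsf-209 was listed at 0 TPM in both replicates, while Nsf-205 had 99.4 and 107 TPM and a share of 15.4% ± 0.00762. The second table also gave Nsf-208, a retained intron near the 3′ end of the gene, 7.76% ± 0.847 of the TPM, against 0.102% ± 0.0532 in the first. The annotation of Nsf-205 and Nsf-209 stops before the coding sequence ends, so their full length is unknown. The tables thus gave the second start a share of between 15.4% and 32.1% of the TPM, and disagreed on which transcript carries it.

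The place of Nsf in the order of levels rested partly on these fragments and partly on Vamp2-204. In the gene table Nsf was 1.28 and 1.19 times as high as Vamp2, and in the second table it was 0.833 and 0.824 times. In the second table the noncoding Vamp2-204 had 177 TPM in replicate 1 and 203 TPM in replicate 2. Vamp2-201 had 584 and 632 TPM there, below the Nsf totals of 646 and 698 TPM. Between the leading coding transcripts, Nsf-202 was 0.884 ± 0.0104 times Vamp2-201 in the first table and 0.830 ± 0.0109 times in the second. Vamp2-201 and Cplx2-201 did not differ beyond their spread, with ratios of 0.981 in replicate 1 and 1.02 in replicate 2. The gene totals of Vamp2 were 1.03 and 1.06 times those of Cplx2, and 1.31 and 1.38 times in the second table. Further down, Cplx1 was 2.52 ± 0.248 times Unc13a, and Unc13a 2.53 ± 0.222 times Stx1a. By counts without length correction Cplx1 was 0.908 and 1.03 times Unc13a. Stx1a was 1.06 and 1.12 times Vamp1, and 1.11 and 1.21 times in the second table, but 0.756 and 0.817 times by counts. With complete coding transcripts alone, Vamp2 was 0.998 and 1.04 times Cplx2, and Stx1a was 0.921 and 1.04 times Vamp1. Between the tables, in TPM of gene totals, only Nsf and Vamp2 changed places, while the order within the pairs of Vamp2 with Cplx2 and Stx1a with Vamp1 also depended on which transcripts were counted.

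**Figure D3:**
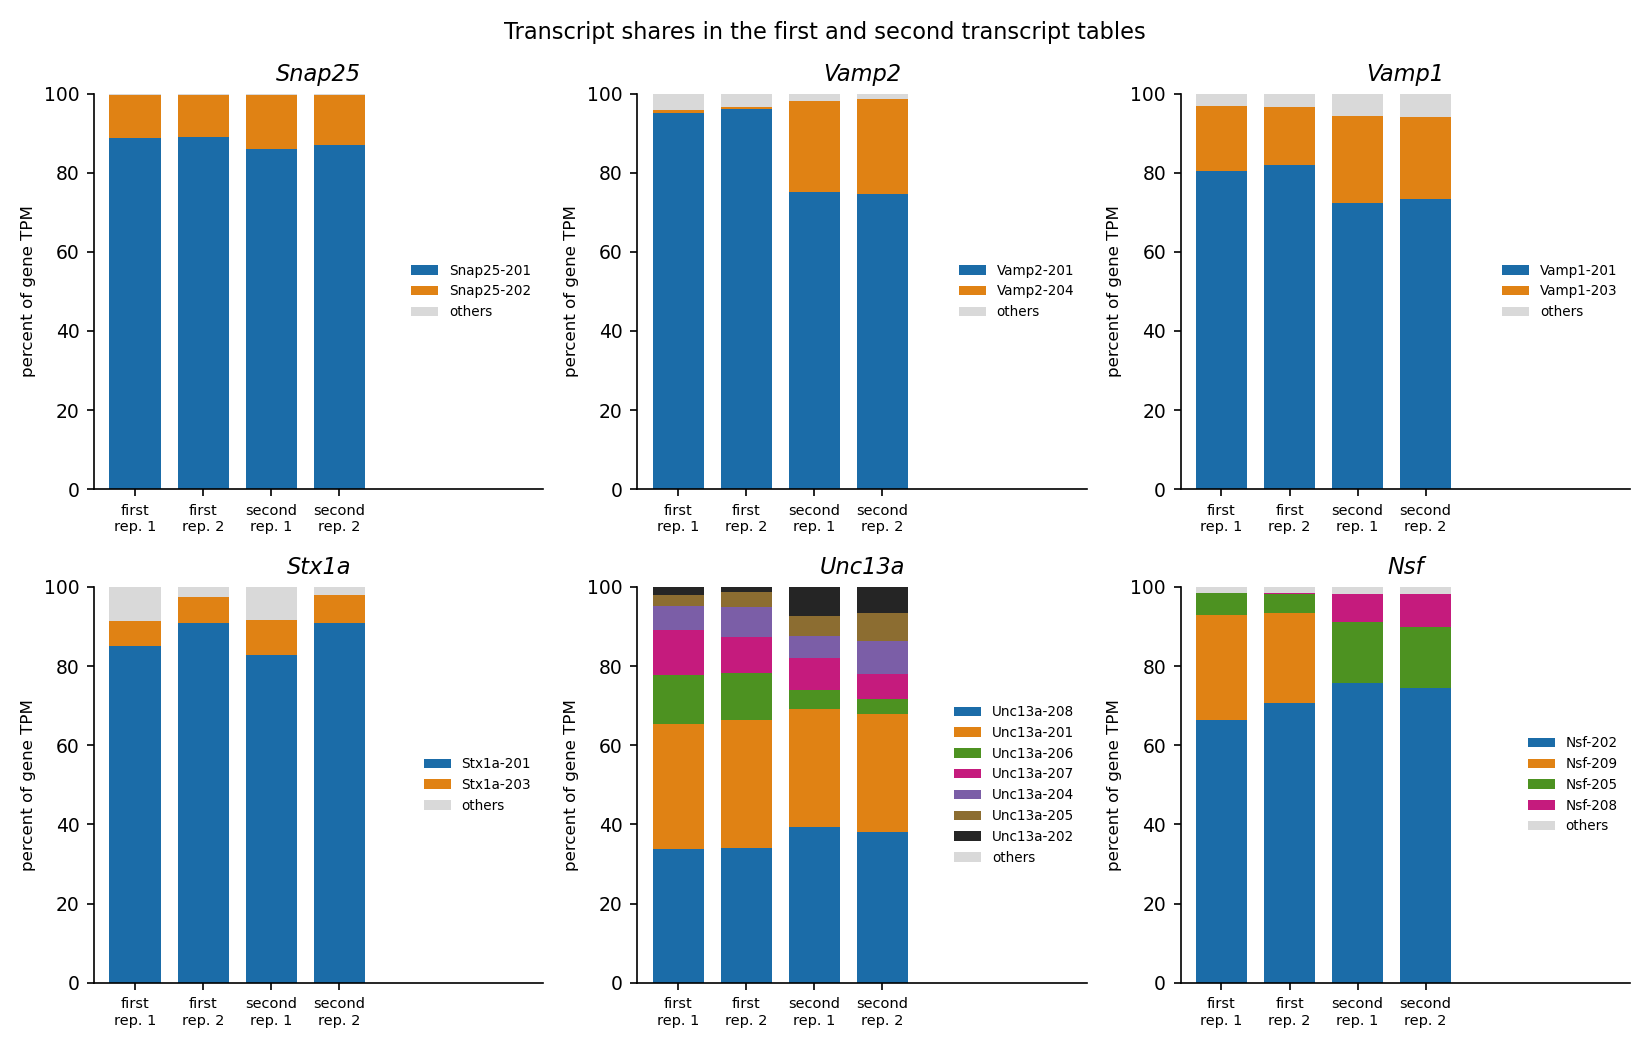
Percent of each gene's TPM held by its transcripts, stacked, for the first transcript table and then the second, replicates 1 and 2, with transcripts of under 5% in both tables pooled as others. The replicates resemble each other within a table, and the tables differ for Nsf-209, Nsf-205, Vamp2-201 and Vamp2-204, among others.

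For each of the 7 genes with more than 1 annotated transcript, the leading transcript was the same in both tables and both replicates. That held for 69.6% of 7288 protein-coding genes with several transcripts and a mean of at least 10 TPM. The coding part of the level varied between the genes. In the first table coding transcripts held between 76.0% ± 2.36 (Unc13a) and 100% (Cplx1 and Cplx2) of the TPM, and 88.4% ± 0.963 at the median gene of the same kind. Stx1a, at 89.0% ± 2.78, lay near that median, and Unc13a lay below it. Nsf stood at 98.4% ± 0.107 with its incomplete coding transcripts, but at 68.5% ± 3.03 with complete ones alone.

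Among the partners of Nsf, the adaptor genes Napb, Napa and Napg code for SNAP proteins unrelated to Snap25 that load Nsf onto the bundle. Napb, the brain form, had 127 TPM in replicate 1 and 142 TPM in replicate 2, Napa 121 and 111 TPM, and Napg 56.4 and 60.3 TPM. Nsf was 1.63 ± 0.0260 times the sum of the 3 adaptors. In the second table, where the fragment Nsf-209 is at 0, it was 1.15 ± 0.0645 times. Napb was 1.05 and 1.28 times as high as Napa, 1.16 ± 0.165 on average, a difference no larger than the SD. The ratio of Napb to Napa was 0.782 and 1.02 in the second table, 1.70 ± 0.0595 with complete coding transcripts alone and 2.80 ± 0.167 by counts without length correction, so their order was not settled.

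All 21 genes on a list of SNARE regulators had at least 1 TPM in both replicates, as did 25.7% of all annotated genes. Of the 21, 6 had at least 100 TPM in both, against 3.48% of nuclear protein-coding genes. The median of the 21 was 45.4 ± 0.113 TPM, below that of the 8 genes. The highest were Rab3a, a GTPase of synaptic vesicles, at 334 ± 18.7 TPM, Sncb, which codes for beta-synuclein, at 280.2 ± 13.3 TPM, Snph, which codes for syntaphilin, at 167 ± 11.3 TPM, and Dnajc5, a vesicle chaperone of Snap25, at 111 ± 0.559 TPM. The lowest were Doc2a, a calcium sensor, at 6.59 ± 0.516 TPM, Rab3d at 6.70 ± 0.410, Stxbp3 at 10.6 ± 1.195 and Stxbp2 at 18.3 ± 3.42 TPM.

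The 8 genes differed little between the replicates, as did most genes. On counts scaled by TMM, the log2 ratio of replicate 1 over replicate 2 ran from -0.11 (Snap25) to 0.08 (Unc13a), with -0.10 for Stx1a and Cplx1, -0.07 for Vamp2, -0.04 for Nsf, -0.01 for Cplx2 and 0.01 for Vamp1. None of the 8 genes passed 1.2-fold in either direction, against 3.67% of the 11417 genes that averaged 5 CPM or more. With so low a share among all genes, the absence of such a gene among 8 does not set them apart. The median of the 8 genes was -0.05, and that of all genes compared was -0.01. Of the 8 genes, 6 were lower in replicate 1 than in replicate 2, as were 53.4% of all genes. Pan-neuronal genes had a median of -0.09, with 6 of 6 lower in replicate 1, and excitatory neuron genes of -0.07, with 4 of 5 lower. Inhibitory neuron genes had a median of -0.14, with 6 of 6 lower, but hippocampal field genes of 0.04, with 1 of 5 lower. Oligodendrocyte genes had a median of 0.12, with 1 of 5 lower, and astrocyte genes of 0.04, with 2 of 5 lower. Oligodendrocyte precursor genes had a median of -0.06, with 4 of 4 lower, and microglia genes of -0.01, with 4 of 5 lower. Neither the neuronal nor the glial lists thus all went 1 way. Choroid plexus genes, at 36.3 and 693 TPM in sum, were lower in replicate 1 for all 5. Their part in the members' ratios was not tested. Scaling by the spike-ins moved the median of all genes to 0.17 and that of the 8 genes to 0.12. A change of scaling shifts every gene by about the same amount. The distance of the 8 from all genes, -0.05, thus stays the same by construction and is no check of the scaling.

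**Figure D4:**
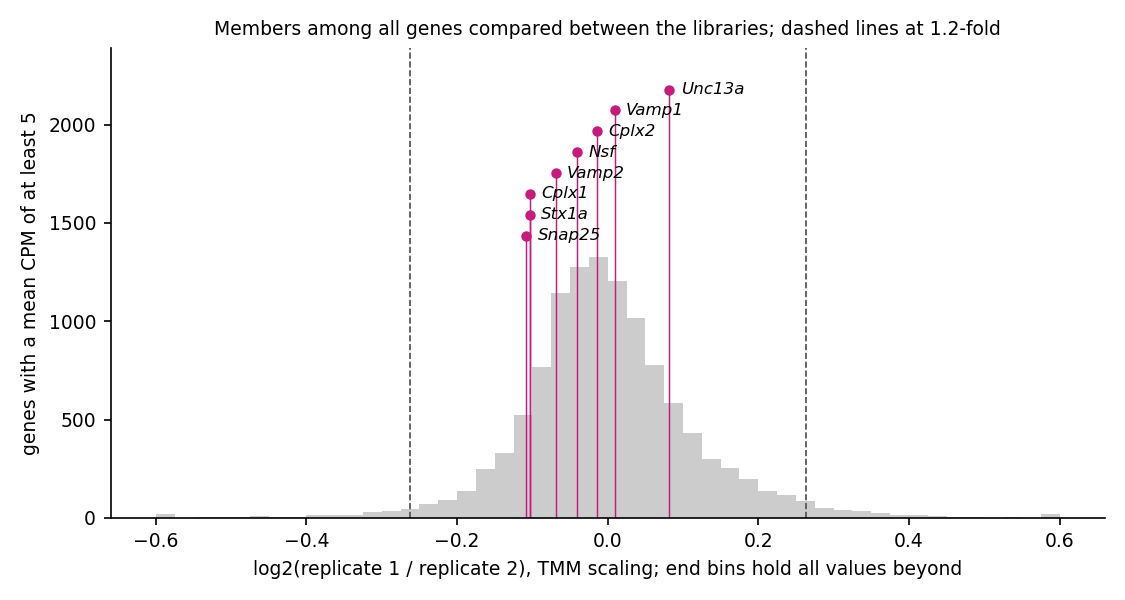
Number of genes averaging 5 CPM or more by their log2 ratio of replicate 1 over replicate 2 (grey bars, TMM scaling), with the 8 genes as labelled points on vertical lines and dashed lines at 1.2-fold. All 8 points lie between -0.11 and 0.08, inside the dashed lines, and 6 of them lie below 0.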

How the data were processed

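For each library a gene table and 2 transcript tables were deposited. They refer to mm10 and GENCODE M21, per the deposited notes. The tools used are not named there. The gene table and first transcript table have an RSEM layout, per the file headers, with an expected count, TPM, each transcript's percent of its gene and a posterior SD (a score for the spread of a count), and the second has the layout of kallisto, with an estimated count and TPM. The authors' TPM values were used as deposited. Rows that name no gene (ERCC, phiX and numbered rows) were left out of all totals. Shares, ratios and SDs over the 2 replicates were computed from them. Expected counts were rounded for the ratio of the replicates (edgeR 4.0.16, TMM, prior count 0.5). A simulation of that step with an assumed spread planted changes of 1.5-fold and 2-fold. At each, 100 of 100 changed genes passed 1.2-fold, as did 514 of 11198 unchanged genes. Changes near 1.2-fold were not simulated, so it is no check of that limit. Exons were read from the GENCODE M21 annotation and transcripts. The assembly represents C57BL/6, so CAST reads may align less well. Genes and lists were chosen with earlier results of these data known. Some items are not reported here. All 8 genes, the other family members, the 4 highest and lowest of the longer lists and transcripts of at least 5% in either table are named. Python 3.11.15 was used. Alternatives included DESeq2 1.42.0 size factors.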

Additional observations from a re-analysis of the deposited data

How the results depend on the processing

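All 8 genes were detected under each setting tried, none passed 1.2-fold between the replicates under TMM, DESeq2, spike-in scaling or the second table, and Snap25, Vamp2, Cplx2 and Unc13a kept the larger share among the paralogs each was set against, as did exon 5b of Snap25. Unc13a came nearest to 1.2-fold, at a log2 ratio of 0.26 under spike-in scaling, just inside that limit. The share of all genes past 1.2-fold is given for TMM only. Unc13a-208 held 51.6% of the complete Unc13a forms by TPM but 36.9% by counts. The sizes moved. The median of the 8 genes was 493 TPM in the second table, 754 TPM over nuclear protein-coding genes, 488 CPM without length correction and 292 TPM with complete coding transcripts alone, a setting chosen after seeing the data. In the second table the Snap25, Vamp2 and Unc13a shares were 77.2%, 93.9% and 81.2%, and the exon 5b share 86.7%. Without length correction the shares of Snap25, Vamp2, Cplx2 and Unc13a were 85.7%, 89.9%, 78.9% and 83.6%, and the exon 5b share 94.8%. With coding transcripts alone Unc13a held 83.4%, and with complete ones Snap25 held 85.8% and Unc13a 82.0%. Spike-in scaling turned the median log2 ratio of the 8 genes between the replicates to 0.12, with that of all genes at 0.17. With 2 replicates, leaving out 1 gives the value of the other and is no check of stability. No paired analysis was possible because there is 1 group. With 2 libraries, an SD is itself imprecise, and no p below 0.5 can be reached.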

Other observations

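SNARE genes of the early secretory pathway stood at lower levels. All 11 genes on a list of ER and Golgi SNAREs had at least 1 TPM in both replicates, as did 25.7% of all annotated genes. None reached 100 TPM. Only 3.48% of nuclear protein-coding genes did so in both replicates, so this does not set the 11 apart. The median of the 11 was 24.7 ± 1.15 TPM (SD, n = 2). The highest were Vti1b, of endosomes and the trans-Golgi network, at 74.0 ± 3.80 TPM, Use1, of the ER, at 45.7 ± 2.52 TPM, Sec22b, which carries vesicles between the ER and Golgi, at 32.1 ± 2.35 TPM, and Ykt6 at 28.0 ± 0.0495 TPM. The lowest were Sec22a at 5.71 ± 1.747 TPM, Bet1 at 9.29 ± 0.955 TPM, Bet1l at 11.1 ± 1.05 TPM and Bnip1 at 12.6 ± 0.453 TPM. Each of the 11 stood below Snap25, Nsf, Vamp2, Cplx2, Cplx1 and Unc13a, but Vti1b and Use1 stood above the synaptic genes Stx1a and Vamp1 in both replicates.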
